A study of Mus musculus with 8 samples.

Results

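The smooth muscle contractile genes are 10 genes listed by symbol, with earlier results of these data known: Acta2, Tagln, Tagln2, Myl9, Tpm1, Tpm2, Cnn1, Cnn2, Cald1 and Actn1. All 10 were among the 12160 genes counted. They were measured in an immortalized line of mouse pancreatic stellate cells (PSCs), the fibroblast-like cells of the pancreas. Each library came from a dome of PSCs embedded in Matrigel, seeded with 20000 cells per the labels, kept 4 days in growth medium and then 4 days in the test medium. In the shControl-CM group (n = 3) that medium had been conditioned by KPC organoids, mouse pancreatic cancer cells grown in Matrigel, carrying a non-targeting shControl hairpin. In the shBrca2-CM group (n = 3) the organoids carried a hairpin against Brca2, a DNA repair gene. The labels name no hairpin in the PSCs themselves. The control medium group (n = 2) is named DMEM in the sample titles and the PSCs' own conditioned medium in the recorded treatment, so whether it was conditioned is not settled here. Organoid conditioned media were collected in DMEM with less serum than the growth medium, and an effect of serum and of what the organoids secreted cannot be told apart against control medium. All groups used 1 PSC line, so the domes measure the spread between cultures of that line.

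Contractile genes encode actin filaments and the proteins that tie them together or switch their pull on myosin. Quiescent stellate cells are known to express little of them, and activated, myofibroblast-like stellate cells to express much. Many of these genes are known targets of serum response factor (SRF), which binds a short DNA element called the CArG box, and of its actin-sensing cofactors of the myocardin family. The proteins fall into filament subunits (Acta2, smooth muscle alpha-actin), filament coats (the tropomyosins Tpm1 and Tpm2), actin-binding regulators (the transgelins Tagln and Tagln2, the calponins Cnn1 and Cnn2, the caldesmon Cald1), a crosslinker (Actn1, alpha-actinin) and the myosin regulatory light chain Myl9.

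The sequences before the start sites of 5 members are shown: Acta2, Myl9 and Cnn2, the members that hold a CArG box or a near match, Tpm1, which fell against control medium and holds neither, and Tagln2, which rose and holds neither. Each is the 250 bases before the start site in RefSeq (GRCm38.p6, the release of the mm10 build), written 5′ to 3′ on the gene's strand, with CArG boxes and near matches in capitals. The windows of Acta2, Myl9 and Tpm1 overlap the annotated span of their own gene, which has other starts upstream.
Acta2, chr19:34255374-34255623, minus strand: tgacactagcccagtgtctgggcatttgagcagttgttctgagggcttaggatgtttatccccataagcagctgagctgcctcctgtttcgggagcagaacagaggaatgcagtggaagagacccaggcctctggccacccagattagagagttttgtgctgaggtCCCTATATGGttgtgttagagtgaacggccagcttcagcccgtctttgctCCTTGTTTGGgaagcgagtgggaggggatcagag
Myl9, chr2:156775214-156775463, plus strand: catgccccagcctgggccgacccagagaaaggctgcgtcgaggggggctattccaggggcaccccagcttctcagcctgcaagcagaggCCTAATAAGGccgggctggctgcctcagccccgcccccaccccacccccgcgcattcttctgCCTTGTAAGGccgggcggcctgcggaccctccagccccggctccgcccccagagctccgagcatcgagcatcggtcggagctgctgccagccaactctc
Cnn2, chr10:79988350-79988599, plus strand: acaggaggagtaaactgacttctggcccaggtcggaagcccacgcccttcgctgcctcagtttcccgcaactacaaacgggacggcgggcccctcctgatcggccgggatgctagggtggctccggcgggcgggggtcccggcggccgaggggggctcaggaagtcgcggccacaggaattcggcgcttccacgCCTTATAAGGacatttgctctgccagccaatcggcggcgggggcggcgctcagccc
Tpm1, chr9:67049214-67049463, minus strand: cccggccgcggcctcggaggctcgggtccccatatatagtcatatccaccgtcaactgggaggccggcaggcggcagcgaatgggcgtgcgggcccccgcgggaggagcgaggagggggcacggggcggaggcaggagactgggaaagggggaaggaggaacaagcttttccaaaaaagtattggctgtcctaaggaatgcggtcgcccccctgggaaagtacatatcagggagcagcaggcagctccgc
Tagln2, chr1:172499996-172500245, plus strand: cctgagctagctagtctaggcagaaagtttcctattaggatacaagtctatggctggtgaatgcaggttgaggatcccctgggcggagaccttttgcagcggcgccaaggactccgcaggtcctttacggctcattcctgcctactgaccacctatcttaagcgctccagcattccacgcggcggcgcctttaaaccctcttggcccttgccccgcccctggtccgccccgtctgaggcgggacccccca

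A CArG box was searched on both strands as its 2 flanking C and 2 flanking G letters around 6 letters that are A or T, and a near match as the same with 1 of the 6 letters C or G. Myl9 held a full match starting 161 bases before its start site and a near match at 99 bases. Cnn2 held a full match at 56 bases, and Acta2 held near matches at 84 and 34 bases. Of 32851 mouse promoters of the same length, 1.47% held a full match and 8.59% held a match of either kind. Of the 9 members with an entry, 2 held a full match and 3 a match of either kind. The 3 members that hold a match fell against control medium, and so did 4 that hold none (Tpm1, Cnn1, Cald1 and Actn1). These matches are letters in a window, and no binding was measured. Tagln had no entry.

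Libraries of control medium were deeper, with 5476988 and 4623846 counts on genes, than those of shControl-CM (1093609 to 1624392) and shBrca2-CM (655996 to 1095534). Levels are given as CPM, counts scaled to a common library size by TMM over the 8 libraries. The libraries read the 3′ end of each mRNA, so CPM was not divided by gene length. A floor of 3 counts was 0.521 to 4.34 CPM, which covers counting error only. No library repeated another. In shControl-CM, libraries 1 and 3 stood further from the rest of their group (SD of log2 CPM differences 0.418 and 0.478) than the other 6 libraries did (0.242 to 0.265).

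Against control medium, 8 of the 10 members fell with shControl-CM, 1 rose and 1 was not called. The same 8 fell with shBrca2-CM, where again 1 rose and 1 was not called. Summed over the 10 members, CPM was 5062 and 5550 in control medium, 2506, 2936 and 3193 with shControl-CM, and 2737, 2838 and 2770 with shBrca2-CM. Those sums hide the member that rose: without Tagln2 they were 4427 and 4839 in control medium, 1199, 1201 and 1153 with shControl-CM, and 1680, 1925 and 1832 with shBrca2-CM. Calls came from edgeR's quasi-likelihood test and needed a Benjamini-Hochberg adjusted p under 0.1, a change of more than 0.5 on the log2 scale in either direction, and a normalized count averaging more than 5. With shControl-CM, 18.9% of the 12086 genes tested were called lower (2284) and 18.2% higher (2199), and scaling by total counts in place of TMM gave 2658 lower and 1800 higher, with Tpm2 then called lower. With shBrca2-CM, 19.2% of the 12049 genes tested were called lower and 18.6% higher. The median log2 fold change of the members was -1.94 with shControl-CM, beside -0.10 over all genes tested, and -1.61 with shBrca2-CM, beside -0.05. Both comparisons use the same control libraries. In these bulk samples fewer cells with contractile genes and less of their RNA per cell cannot be told apart.

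**Figure D1:**
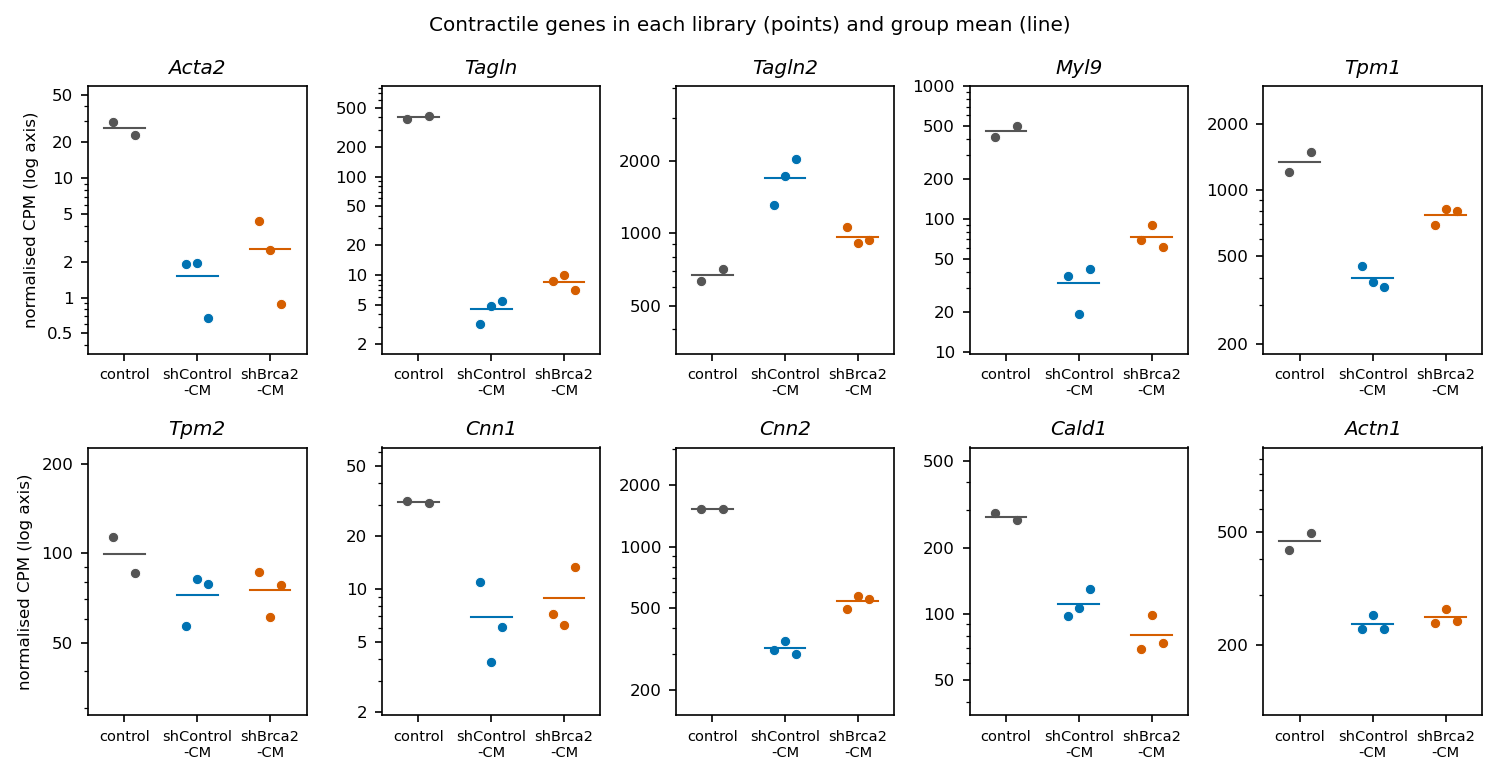
Normalised CPM (log axis, a separate range per panel) of the 10 contractile genes in each library (points) with the group mean (line), for control medium (n = 2), shControl-CM (n = 3) and shBrca2-CM (n = 3). Tagln fell from 381 and 415 CPM to under 10 CPM in all 6 conditioned medium libraries, and Tagln2 was the member above control in all 6.

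Acta2, the actin that defines smooth muscle and myofibroblast filaments, was low even in control medium. It was at 29.5 and 23.0 CPM there, from 170 and 107 counts. With shControl-CM it was at 1.92, 1.93 and 0.679 CPM, from 3, 2 and 1 counts, and with shBrca2-CM at 4.34, 2.49 and 0.888 CPM, again from 3, 2 and 1 counts. The conditioned medium libraries did not overlap the control libraries, and all 6 were at or under the floor. Pooled, control medium held 18.0 times the level of shControl-CM (exact 95% interval 8.19 to 49.6) and 11.6 times that of shBrca2-CM (5.28 to 32.0), where the intervals cover counting error only. The fall was called in both comparisons (edgeR adjusted p = 1.22e-04 and 1.11e-09). Acta2 passed the count filter there only through the control libraries. Between the conditioned media no fold is given, since both groups were at or under the floor.

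Tagln, also known as SM22, binds along actin filaments and is among the earliest markers of smooth muscle differentiation. Its CPM was 381 and 415 in control medium, 3.20, 4.83 and 5.43 with shControl-CM, and 8.68, 9.96 and 7.10 with shBrca2-CM. This put the shControl-CM mean at 1.13% of the control mean and the shBrca2-CM mean at 2.16%. The change on the log2 scale was -6.48 with shControl-CM (SE 0.23, edgeR adjusted p = 1.32e-07) and -5.55 with shBrca2-CM (SE 0.22, edgeR adjusted p = 2.28e-30). Ranked from the lowest, these were positions 16 of 10664 and 5 of 10364 among genes with a mean normalized count over 5. The conditioned medium values rest on 5 to 8 counts a library, and the pooled ratio of control medium to shControl-CM was 89.5 (exact 95% interval 56.6 to 151). Every shBrca2-CM library was above every shControl-CM library. That difference did not pass (log2 fold change 0.94, SE 0.46, 95% interval -0.06 to 1.94, edgeR adjusted p = 0.412), and in libraries thinned to the smallest total it was 0.10 (adjusted p = 0.982). The annotated span of Tagln (chromosome 9, 45929628 to 45936058) overlaps Pcsk7, and whether counting used strand is not given in the sources used here. Pcsk7 was at 49.9 and 54.0 CPM in control medium and 24.4 to 42.5 CPM with conditioned media.

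Tagln2, the transgelin of non-muscle cells, moved the other way. Its level was 635 and 711 CPM in control medium, 1306, 1734 and 2040 CPM with shControl-CM, and 1058, 913 and 938 CPM with shBrca2-CM. The 3 groups did not overlap. It rose with shControl-CM (log2 fold change 1.32, SE 0.20, edgeR adjusted p = 0.00104) and by less with shBrca2-CM (0.53, SE 0.14, edgeR adjusted p = 0.00114). The shBrca2-CM call sat just past the fold threshold and was lost when shBrca2-CM replicate 1 (0.46) or control medium replicate 1 (0.45) was left out. Compared directly, Tagln2 was lower with shBrca2-CM than with shControl-CM (-0.78, SE 0.16, 95% interval -1.12 to -0.44, edgeR adjusted p = 0.0216), a call lost without shBrca2-CM replicate 2 (adjusted p = 0.187) or 3 (0.156) or shControl-CM replicate 2 (0.117).

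Set against each other in a library, the transgelins gave Tagln2 to Tagln count ratios of 1.67 and 1.71 in control medium, 408, 359 and 375 with shControl-CM, and 122, 91.8 and 132 with shBrca2-CM. The ratio does not depend on library scaling. Pooled, it was 1.69 in control medium (exact 95% interval 1.63 to 1.76), 380 with shControl-CM (240.2 to 641) and 115 with shBrca2-CM (75.6 to 183), with counting error only. Of its terms, Tagln2 was called between the conditioned media and Tagln was not.

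**Figure D2:**
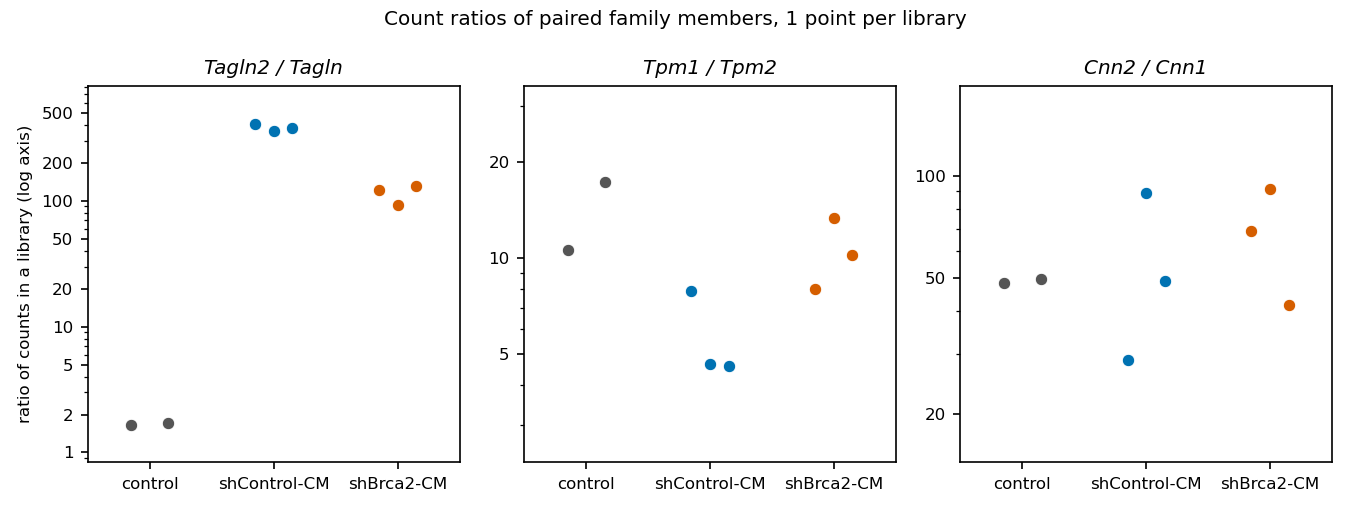
Ratio of the counts of paired family members within each library (points, log axis, a separate range per panel) for Tagln2 to Tagln, Tpm1 to Tpm2 and Cnn2 to Cnn1. The transgelin ratio separates the 3 groups, from 1.67 and 1.71 in control medium to 359 or more with shControl-CM, while the calponin ratio overlaps between all 3.

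Myl9, the regulatory light chain whose phosphorylation switches smooth muscle myosin on, had 413 and 500 CPM in control medium, 37.2, 19.3 and 42.1 CPM with shControl-CM, and 69.4, 89.6 and 61.2 CPM with shBrca2-CM. None of the 3 groups overlapped another. It fell with shControl-CM (log2 fold change -3.77, SE 0.25, edgeR adjusted p = 5.89e-06) and with shBrca2-CM (-2.65, SE 0.16, edgeR adjusted p = 3.58e-21). Compared with shControl-CM it was higher with shBrca2-CM by 1.14 on the log2 scale (SE 0.26, 95% interval 0.57 to 1.71, edgeR adjusted p = 0.0468). This call was lost when any 1 of 4 libraries was left out, namely shBrca2-CM replicate 1 (adjusted p = 0.169), 2 (0.28) or 3 (0.106) or shControl-CM replicate 2 (0.153).

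Tpm1, a tropomyosin that lies along the actin filament, was among the most abundant members. Its CPM was 1206 and 1488 in control medium, 450, 382 and 361 with shControl-CM, and 696, 818 and 800 with shBrca2-CM, with no overlap between groups. It fell by 1.77 on the log2 scale with shControl-CM (SE 0.17, edgeR adjusted p = 6.47e-05) and by 0.80 with shBrca2-CM (SE 0.13, edgeR adjusted p = 1.37e-06). Levels with shBrca2-CM were 57.2% of the control mean, and with shControl-CM 29.5%. The direct difference was 0.98 (SE 0.13, 95% interval 0.69 to 1.27, edgeR adjusted p = 0.00167), which passed in every setting tried, leaving out each library included.

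Tpm2, the other muscle tropomyosin of the list, was not called in any comparison. It was at 114 and 86.0 CPM in control medium, 57.0, 82.1 and 78.8 CPM with shControl-CM, and 86.8, 61.0 and 78.1 CPM with shBrca2-CM, so that the shControl-CM libraries lay below both control libraries and the shBrca2-CM libraries overlapped both groups. The log2 fold change was -0.48 with shControl-CM (95% interval -0.94 to -0.01, edgeR adjusted p = 0.106) and -0.41 with shBrca2-CM (-0.76 to -0.07, edgeR adjusted p = 0.0522). The difference between the conditioned media was 0.08, with a 95% interval of -0.35 to 0.52. Against control medium the call appeared under some settings. With shControl-CM these were total counts (-0.60), a replicate block (-0.55) and leaving out shControl-CM replicate 3. With shBrca2-CM they were leaving out shBrca2-CM replicate 1 or control medium replicate 2.

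Tropomyosin counts as a whole (Tpm1, Tpm2, Tpm3 and Tpm4) also split unevenly. Tpm1 gave 52.6% and 58.2% of them in control medium, 39.7%, 49.8% and 47.2% with shControl-CM, and 53.3%, 57.1% and 57.8% with shBrca2-CM. Every shControl-CM library was below the other 5 in this share. Tpm4, a non-muscle tropomyosin, split the shControl-CM group: it was at 349 CPM in replicate 1 but 24.2 and 20.4 CPM in replicates 2 and 3, beside 217 to 301 CPM with shBrca2-CM and 700 and 648 CPM in control medium. The shares of the other 3 tropomyosins in shControl-CM therefore depend on that library.

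**Figure D3:**
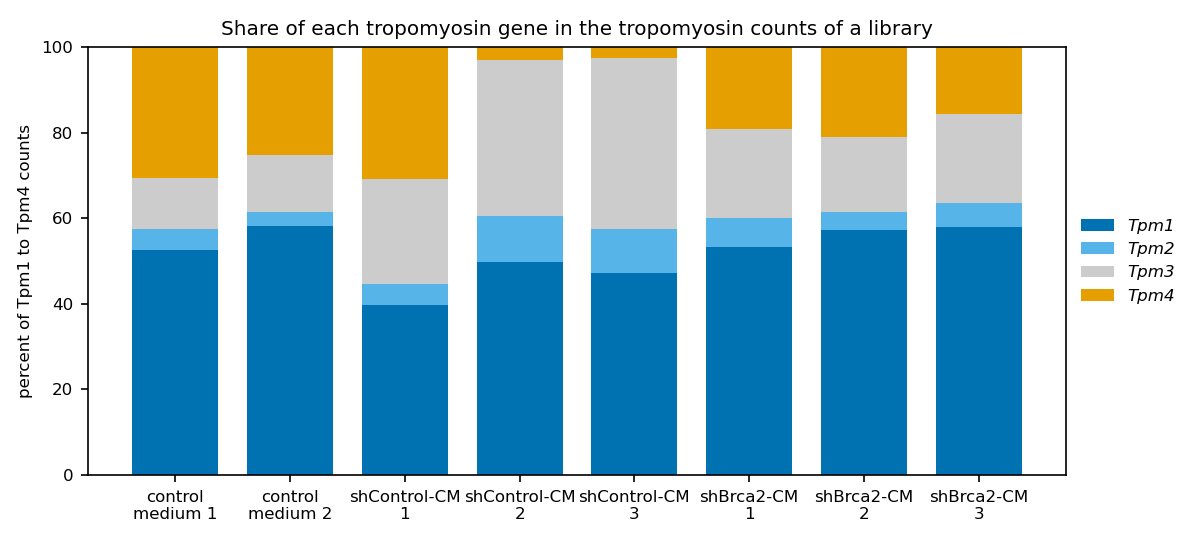
Share of the summed tropomyosin counts (percent, from 0) taken by Tpm1, Tpm2, Tpm3 and Tpm4 in each of the 8 libraries. Tpm1 took 39.7% to 49.8% with shControl-CM and 52.6% or more in the other libraries, and Tpm4 took 30.8% in shControl-CM replicate 1 but 3.15% and 2.66% in replicates 2 and 3.

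The calponins bind actin and restrain its sliding on myosin, Cnn1 in smooth muscle and Cnn2 more widely. Cnn2, the most abundant member in control medium, was at 1531 CPM in both control libraries, 314, 344 and 300 CPM with shControl-CM, and 498, 571 and 555 CPM with shBrca2-CM. No groups overlapped. It fell by 2.27 on the log2 scale with shControl-CM (SE 0.15, edgeR adjusted p = 4.95e-06) and by 1.50 with shBrca2-CM (SE 0.13, edgeR adjusted p = 1.25e-14). Between the conditioned media it was higher with shBrca2-CM by 0.79 (SE 0.12, 95% interval 0.52 to 1.06, edgeR adjusted p = 0.00467), again in every setting tried. As a percent of Actb counts in a library, Cnn2 was 8.64, 13.7 and 8.26 with shControl-CM and 10.7, 14.9 and 14.2 with shBrca2-CM, which overlapped. The same ratio did not overlap between these groups for Myl9 or Tagln2.

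Cnn1 was scarce. It was at 31.6 and 30.7 CPM in control medium, 10.9, 3.87 and 6.11 CPM with shControl-CM, and 7.23, 6.22 and 13.3 CPM with shBrca2-CM, from 4 to 17 counts a conditioned medium library. It fell with shControl-CM (log2 fold change -2.10, SE 0.35, edgeR adjusted p = 0.00174) and with shBrca2-CM (-1.71, SE 0.30, edgeR adjusted p = 3.39e-06). The conditioned media overlapped, with a difference of 0.38 and a 95% interval of -0.67 to 1.44. A difference of the size seen for Cnn2 lies inside that interval, and the Cnn2 to Cnn1 ratio overlapped between all groups (28.8 to 91.8).

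Cald1, which ties actin to myosin and tropomyosin and slows the myosin motor, was at 289 and 270 CPM in control medium, 98.0, 107 and 130 CPM with shControl-CM, and 69.4, 99.6 and 73.7 CPM with shBrca2-CM. It was, with Tagln2, 1 of the 2 members whose mean was lower with shBrca2-CM than with shControl-CM. It fell by 1.33 with shControl-CM (SE 0.17, edgeR adjusted p = 3.55e-04) and by 1.79 with shBrca2-CM (SE 0.16, edgeR adjusted p = 2.71e-14). The direct difference of -0.44 (SE 0.18, 95% interval -0.84 to -0.05) did not pass (edgeR adjusted p = 0.308). Without shControl-CM replicate 1 it passed (-0.56, adjusted p = 0.0925).

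Actn1, which crosslinks actin filaments at dense bodies and focal adhesions, was at 432 and 494 CPM in control medium, 227, 256 and 228 CPM with shControl-CM, and 240, 268 and 243 CPM with shBrca2-CM. Both conditioned media lay below control and overlapped each other. Its decreases were -0.98 (SE 0.15, edgeR adjusted p = 0.00121) and -0.89 (SE 0.14, edgeR adjusted p = 5.4e-07). The interval of the difference between conditioned media, -0.17 to 0.38 around 0.11, leaves out a change of the size of Tpm1 or Cnn2.

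**Figure D4:**
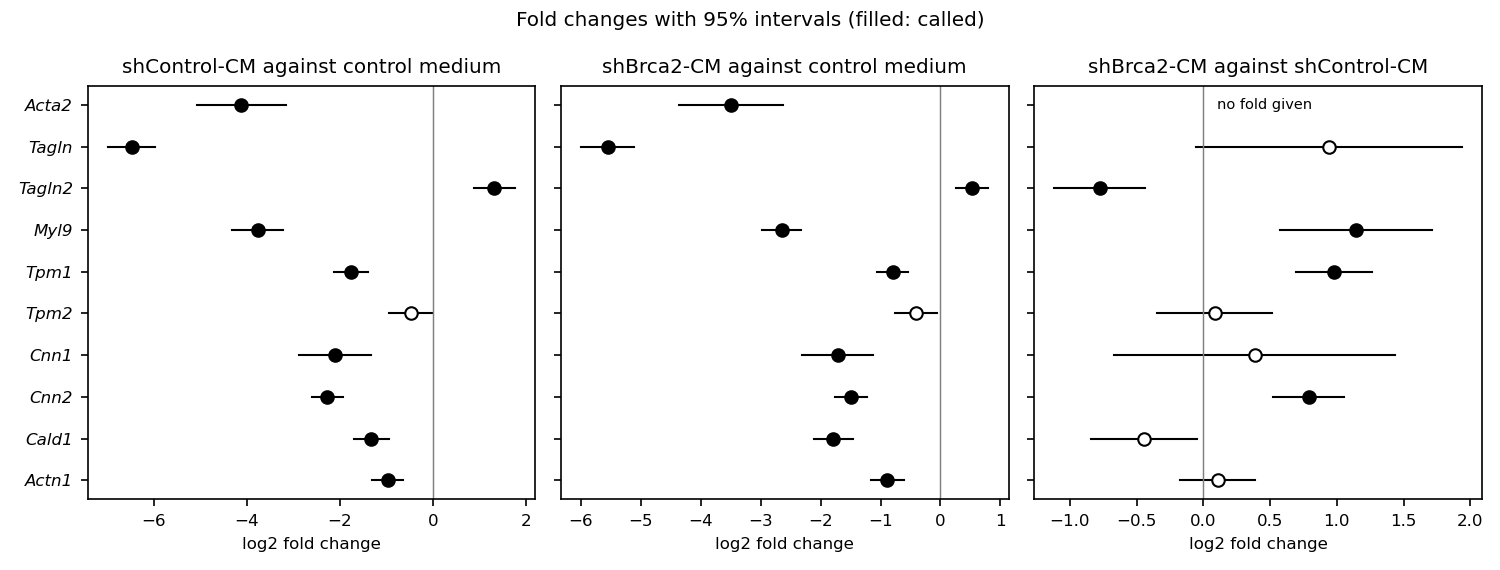
Log2 fold change of each contractile gene (points, filled where called) with its 95% interval (lines) in the 3 comparisons, each panel with its own range. Against control medium 8 members lie left of 0 and are called in both panels, Tagln2 lies right of 0, and between the conditioned media 4 are called; Acta2 has no fold there.

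The comparison of shBrca2-CM with shControl-CM sets medium from organoids with the Brca2 hairpin beside medium from organoids with the shControl hairpin. How many organoid cultures or collections of medium fed the domes of a group is not given in the sources used here. An effect of the Brca2 hairpin and of the organoid culture or medium batch therefore cannot be told apart. In this comparison 3 members were called higher with shBrca2-CM (Myl9, Tpm1 and Cnn2), 1 was called lower (Tagln2) and 6 were not called. Acta2 was among those 6, with every library at or under the floor. Over all 11035 genes tested, 1.58% were called higher and 1.55% lower. Scaling by total counts in place of TMM gave 250 genes higher and 120 lower, beside 174 and 171, and moved the median of all genes from 0.03 to 0.14. The 4 members kept their calls and directions under that scaling. It shifts genes toward higher with shBrca2-CM, so of the 4 calls it could weaken only the lower call of Tagln2. Leaving out 1 library gave 2 to 5 called members, with Tpm1 and Cnn2 called throughout.

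Other genes of the apparatus were read from lists. Among 15 other actin and actomyosin genes counted, 9 fell and none rose with shControl-CM, where 18.9% and 18.2% of all genes did, and 8 fell and none rose with shBrca2-CM, where 19.2% and 18.6% did. With Myh11, at 0 counts with conditioned media, taken at its bound, the median log2 fold change was -1.24 and -1.19. Actg2, the gamma-actin of smooth muscle, fell from 52.1 and 63.4 CPM to 5.13 to 5.80 CPM with shControl-CM and to 5.79 to 22.4 CPM with shBrca2-CM. Mylk, the kinase that phosphorylates the regulatory light chain, fell on the log2 scale with both (-2.44 with shControl-CM and -1.67 with shBrca2-CM). Reads of near-identical actin genes may be split in counting, so actin values are uncertain. Actb, cytoplasmic beta-actin, was not called in any comparison (4495 and 4609 CPM in control medium, 2512 to 3635 with shControl-CM and 3824 to 4634 with shBrca2-CM). Myh9, the non-muscle myosin heavy chain, fell with shControl-CM (-0.73, edgeR adjusted p = 0.00639), was not called with shBrca2-CM (-0.11), and was higher with shBrca2-CM than with shControl-CM (0.63, edgeR adjusted p = 0.0539). That last call was lost without shBrca2-CM replicate 1 (adjusted p = 0.15) or 2 (0.301) or shControl-CM replicate 2 (0.249).

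Of 18 dense body and stress fibre genes counted, 9 fell and 1 rose with each conditioned medium, beside the same shares of all genes (18.9% lower and 18.2% higher with shControl-CM, 19.2% and 18.6% with shBrca2-CM). The genes were not all the same. Pdlim7 rose with shControl-CM (0.70, edgeR adjusted p = 0.0216). Des rose with shBrca2-CM (1.32, edgeR adjusted p = 0.0104), from 8 to 10 counts a library there. Csrp1 and Sorbs3 were called lower only with shControl-CM, and Smtn and Flna only with shBrca2-CM. Fhl2, a LIM protein of focal adhesions and stress fibres, was at 287 and 304 CPM in control medium, 39.1, 24.2 and 25.8 CPM with shControl-CM, and 70.9, 102 and 75.5 CPM with shBrca2-CM. Its groups did not overlap, and it differed between the conditioned media by 1.48 (SE 0.23, edgeR adjusted p = 0.00488). Csrp1, another LIM protein, differed the same way by 0.53 (edgeR adjusted p = 0.076), a call lost without any of 4 libraries: shBrca2-CM replicate 1 (adjusted p = 0.214), 2 (0.311) or 3 (0.219) or shControl-CM replicate 2 (0.377). Fhl1, also a LIM protein, fell with both conditioned media (-1.63 with shControl-CM and -0.88 with shBrca2-CM).

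Of the 8 counted genes of SRF and its cofactors, 2 rose and 2 fell with shControl-CM, where 18.2% and 18.9% of all genes did, and 1 rose and none fell with shBrca2-CM, where 18.6% and 19.2% of all genes did. So few genes, near those shares, give no result about the list. Srf itself was called higher with shControl-CM (0.79, edgeR adjusted p = 0.057), a call lost without shControl-CM replicate 2 (adjusted p = 0.186), control medium replicate 1 (0.303) or 2 (0.184), and it was 0.20 and not called with shBrca2-CM. Mrtfb, a myocardin-related cofactor, was -0.76 with shControl-CM (edgeR adjusted p = 0.0925) and lost its call without any 1 of the 5 libraries (adjusted p = 0.13 to 0.354). Elk3, an SRF partner, rose by 0.89 and 0.52, the latter call being lost without shBrca2-CM replicate 1 (0.50) or 3 (0.48). Klf4, a repressor of smooth muscle genes, was at 87.6 and 73.5 CPM in control medium, 39.7, 32.9 and 36.0 CPM with shControl-CM, and 86.8, 89.6 and 63.0 CPM with shBrca2-CM. It fell with shControl-CM (-1.15, edgeR adjusted p = 0.00177), was not called with shBrca2-CM (-0.04), and differed between them by 1.14 (edgeR adjusted p = 0.0105).

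**Figure D5:**
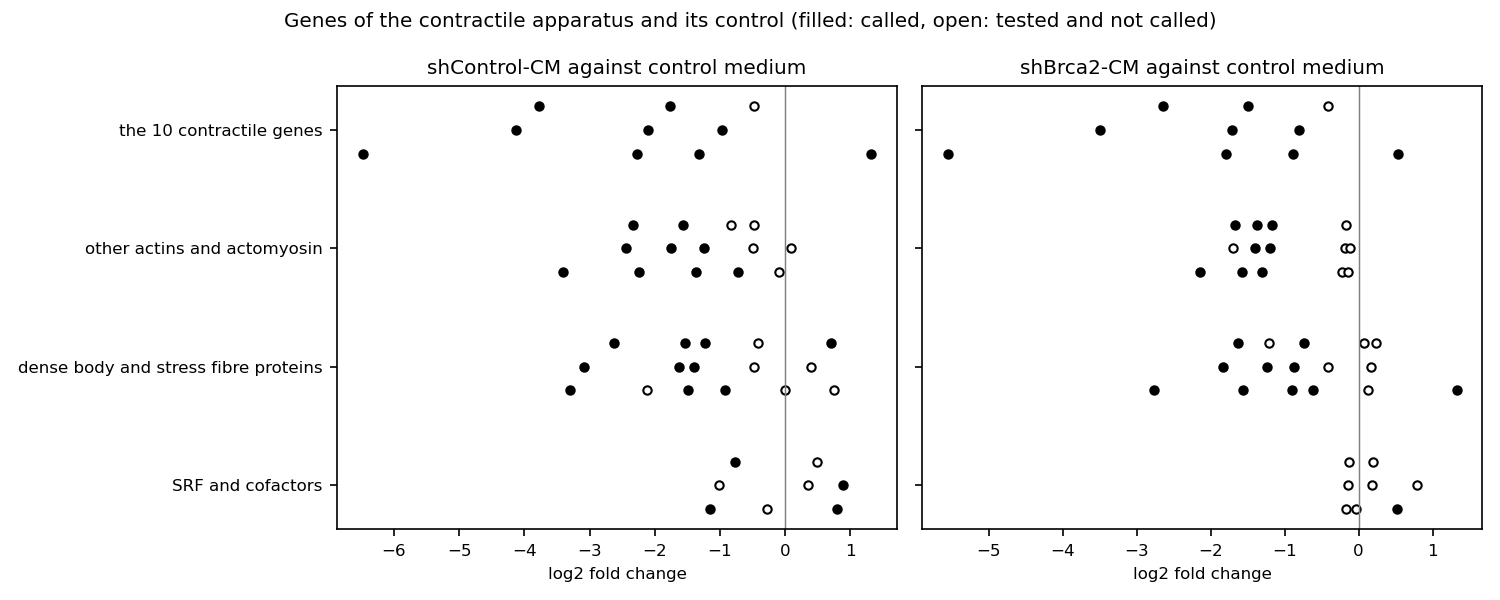
Log2 fold change against control medium for each tested gene (points, filled where called) of the 10 contractile genes and of 3 related lists, with shControl-CM on the left and shBrca2-CM on the right, each panel with its own range. Genes with 0 counts in every library of the conditioned medium are not drawn, and vertical offsets only separate points. Filled points left of 0 number 9 and 8 in the actomyosin list and 9 and 9 in the dense body list, and the 8 SRF genes lie on both sides of 0 in each panel.

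The markers of cell types bear on what these domes held. The 12 fibroblast markers summed to 6845 and 7761 CPM in control medium, 5181 to 5752 CPM with shControl-CM and 4976 to 5215 CPM with shBrca2-CM, and moved in both directions. Dcn, a matrix proteoglycan (log2 fold change 4.50 with shControl-CM and 3.56 with shBrca2-CM), and Pdpn, a membrane mucin (3.12 and 2.03), rose, while Vim, an intermediate filament protein (-3.38 and -2.68), and Col1a2, a chain of type I collagen (-2.48 and -1.86), fell. Smooth muscle and pericyte markers, with 4 of 9 counted, summed to 110 CPM in both control libraries, 44.5 to 55.1 CPM with shControl-CM and 59.7 to 64.8 CPM with shBrca2-CM. Notch3, a Notch receptor of mural cells (-1.45 and -0.69), and Mcam, an adhesion protein (-1.08 and -0.99), fell, the Mcam call with shControl-CM being lost without control medium replicate 1 (adjusted p = 0.142) or 2 (0.144). Cspg4, a pericyte proteoglycan, was not called with shControl-CM (-0.07, edgeR adjusted p = 0.882) and fell with shBrca2-CM (-1.32, edgeR adjusted p = 0.00535). Myh11, the smooth muscle myosin heavy chain, had 10 and 1 counts in control medium and 0 counts in all 6 conditioned medium libraries. Epithelial markers, with 3 of 8 counted, summed to 37.0 and 41.7 CPM in control medium, 57.7 to 70.6 CPM with shControl-CM and 59.3 to 94.1 CPM with shBrca2-CM. They moved in both directions, since Krt18 and Muc1 rose with both conditioned media and Krt19 fell (-3.18 and -1.03). Immune markers, with 2 of 6 counted, summed to 7.52 and 9.04 CPM in control medium, 16.7 to 22.4 CPM with shControl-CM and 13.0 to 23.1 CPM with shBrca2-CM, and the endothelial marker Kdr was at 0 in all shBrca2-CM libraries and at most 2.43 CPM elsewhere. Of the immune markers, Cd68 rose with both conditioned media and Lyz2 was called with neither. The part of all these markers in the contractile decreases was not tested.

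The genes whose changes were most like those of Tagln were found by distance in the plane of the 2 log2 fold changes against control medium, among 10179 genes. They were Rerg, a Ras-like GTPase (-5.61 with shControl-CM and -4.75 with shBrca2-CM, distance 1.18), Eln, elastin (-5.64 and -4.29, distance 1.52), Fmod, fibromodulin (-5.81 and -4.10, distance 1.60), Sfrp2, a secreted Wnt modulator (-5.43 and -4.20, distance 1.72) and Dkk2, a Wnt antagonist (-6.02 and -3.53, distance 2.07). None of the 5 is a member. The likeness rests on 2 fold changes that share their control libraries. The conditioned medium counts behind it are few, in all 6 libraries together 13 for Rerg, 16 for Eln, 28 for Dkk2, 78 for Fmod and 101 for Sfrp2, beside 18 with shControl-CM and 22 with shBrca2-CM for Tagln, so these folds, the distances and their order are imprecise.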

How the data were processed

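Counts per gene of 8 MARS-seq 3′ end libraries (NextSeq 500) were used. The authors deposited raw counts for 12160 genes, 1 column per library, without normalization. The submitters' processing notes name bcl2fastq, cutadapt, STAR 2.4.2a, HTSeq and DESeq2 and the mm10 build. Their parameters, the use of strand and molecular identifiers, and how the 12160 genes were selected are not given in the sources used here. The table has 1 further per-sample column, whose name marks it as DMEM library 3 (the control medium titles are DMEM 1 and 2), but it matches no sample and was not used.

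Samples were grouped by titles and recorded treatment. The fits were made in edgeR 4.0.16 under R 4.3.3, 1 for each pair of groups (TMM, at least 10 counts over the libraries fitted, quasi-likelihood test, Benjamini-Hochberg adjustment), and the thresholds for a call are those of the study's methods, which used DESeq2. The steps were tested on simulated data. Counting intervals are exact conditional Poisson intervals. Depth limits low genes most with shBrca2-CM, where a library held as few as 655996 counts. The members and lists were chosen with earlier results of these data known. Genes named were the 10 members, up to 4 called genes with the largest change with shControl-CM in each other list, list genes called between the conditioned media, and the 5 nearest to Tagln. Of the genes this rule names, some, and 1 list, are not reported here. Actb, Myh11, Tpm3, Pdlim7, Des, Sorbs3, Smtn, Flna, Cspg4, Lyz2, Kdr and Pcsk7 were named outside that rule, after their values were seen. The alternatives tried were DESeq2 1.42.0 (likelihood ratio test), other scalings and filters, 1 fit of all groups, thinned libraries, a replicate block and each library left out. Promoter sequences are from RefSeq (GRCm38.p6).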

Additional observations from a re-analysis of the deposited data

How the results depend on the processing

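Against control medium, the 8 decreases kept their direction and call in all settings, except that Cnn1 with shBrca2-CM lost its call in libraries thinned to the smallest total (-1.46, adjusted p = 0.16). Between the conditioned media, Tpm1 (0.90 to 1.09) and Cnn2 (0.73 to 0.90) were called in all settings. Set against Actb in a library, both genes overlapped between the conditioned media. Thinning lowered the genes called from 4483 to 1287 with shControl-CM and from 4552 to 1780 with shBrca2-CM, with fewer counts by construction. Leaving out each library gave 1901 to 5154 genes called with shControl-CM against control medium (1901 and 2267 without control medium replicates 1 and 2), and 128 to 974 (345 with all libraries) between the conditioned media, 974 without shControl-CM replicate 1, with 2 to 5 members called. Thinning also moved Tagln, not called, from 0.94 to 0.10. A fit left with 1 control library assumes that it varies like the others. Between the conditioned media, members that were not called changed sign: Tpm2 to -0.05 and Actn1 to -0.01 when thinned, and, over libraries left out, Tpm2 ranged from -0.09 to 0.21 and Cnn1 from -0.06 to 0.85. With shControl-CM against control medium, scaling by total counts shifted the all-gene median from -0.10 to -0.21. DESeq2 called 3502, 3661 and 283 genes in the 3 comparisons and changed no member's call. Same-numbered shBrca2-CM and shControl-CM samples deviated together weakly (r across genes -0.074, 0.045 and 0.193). Differently numbered samples of these groups had r from -0.278 to 0.29. Whether a shared number marks a shared batch is not settled by these values. With a replicate block, 4506, 3848 and 311 genes and 10, 9 and 4 members were called, Tpm2 being gained with shControl-CM (-0.55, adjusted p = 0.016), and conditioned medium replicates 3 have no control partner.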

Other observations

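Some genes of the cytoskeleton split the shControl-CM group, and were noticed after their values were seen. Besides Tpm4, Vcl, which encodes vinculin of focal adhesions, was at 14.1, 1.93 and 0 CPM with shControl-CM (22, 2 and 0 counts), 20.3, 19.9 and 11.5 CPM with shBrca2-CM, and 48.5 and 49.4 CPM in control medium. Neither gene was called between the conditioned media with all libraries (Tpm4 0.94, edgeR adjusted p = 0.647, and Vcl 1.57, edgeR adjusted p = 0.412). Against control medium, edgeR called both lower with shControl-CM (Tpm4 -2.33, edgeR adjusted p = 0.0565, and Vcl -3.08) and DESeq2 called neither (adjusted p = 0.249 and 0.209). Without shControl-CM replicate 2, control medium replicate 1 or 2, the Tpm4 call was also lost with edgeR (adjusted p = 0.179, 0.246 and 0.213).

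Actg1, cytoplasmic gamma-actin, was counted at 20.2 and 22.1 CPM in control medium and at 2.56 to 14.5 CPM with conditioned media, beside Actb at 2512 or more in every library. It fell against control medium on the log2 scale (-2.24 with shControl-CM and -1.19 with shBrca2-CM), from 4 to 10 counts a conditioned medium library. Reads of near-identical actin genes may be split in counting, so the level and fall of Actg1 are uncertain. The epithelial keratins moved apart: Krt18 rose by 2.43 with shControl-CM and 2.66 with shBrca2-CM, and Krt19 fell (-3.18 and -1.03). Muc1, an epithelial mucin, rose by 1.97 and 2.08, and Cd68, a macrophage lysosomal protein, rose with both (edgeR adjusted p = 0.00187 and 2.72e-04), while Lyz2, lysozyme and the other immune marker counted, was not called with either (-0.56 and -0.23). Compared directly, Krt19 was higher with shBrca2-CM (2.12, edgeR adjusted p = 0.0632), a call lost without shBrca2-CM replicate 2 (adjusted p = 0.321) or 3 (0.258) or shControl-CM replicate 2 (0.138). Fibroblast genes called between the conditioned media were Dcn (-0.93, edgeR adjusted p = 0.00314), Pdpn (-1.07, edgeR adjusted p = 0.0118), Lum (-1.59, edgeR adjusted p = 0.0849), Pdgfra (0.85, edgeR adjusted p = 0.0519) and S100a4 (0.73, edgeR adjusted p = 0.015). Leaving out 1 library ended the calls of Lum without any of shBrca2-CM replicates 1, 2 and 3 or shControl-CM replicate 2, of Pdgfra without shBrca2-CM replicate 2 or 3 or shControl-CM replicate 2, of S100a4 without shBrca2-CM replicate 1 or 2 or shControl-CM replicate 2, and of Pdpn without shBrca2-CM replicate 2. Dcn was called in each of those fits. Notch3 (0.77, edgeR adjusted p = 0.0998) kept its call between the conditioned media without shControl-CM replicate 1 and lost it without any other of the 6 libraries (adjusted p = 0.166 to 0.311). In the same list, Cspg4 was at 12.2, 8.70 and 17.0 CPM with shControl-CM and at 5.79, 6.22 and 4.44 CPM with shBrca2-CM without a call (-1.21, edgeR adjusted p = 0.215), and Mcam was at 0.08.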
